A study of Mus musculus with 8 samples.

Results

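The genes of the insulin-like growth factor (IGF) system were examined in primary myofibroblastic hepatic stellate cells (pMF-HSCs) of the mouse. The set was chosen by name and held 10 of the 40840 genes in the deposited tables. It held 2 ligands (Igf1 and Igf2), 2 receptors (Igf1r and Igf2r) and 6 binding protein genes (Igfbp2 to Igfbp7). Hepatic stellate cells (HSCs) are liver cells that store vitamin A and become matrix-secreting myofibroblasts in culture. They came from male C57BL/6J mice aged 15 to 18 weeks and, per the study's methods, were sorted by the autofluorescence of retinol. After 7 days in DMEM with 5% fetal bovine serum (FBS), cultures received DMSO (control, n = 4) or OSMI-1 at 50 µM (OGTi, n = 4) for 24 h. OSMI-1 is a small-molecule inhibitor of O-GlcNAc transferase (OGT), which attaches the sugar O-GlcNAc to proteins. All animals were of one sex and strain, and whether a replicate pooled several mice was not given in the sources used here.

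IGF1 and IGF2 are secreted polypeptides that signal through the IGF1 receptor, a tyrosine kinase that feeds the PI3K/AKT and MAPK pathways. The IGF2 receptor, which is also the cation-independent mannose 6-phosphate receptor, takes up IGF2 for degradation, delivers lysosomal enzymes to lysosomes and is not a kinase. The binding proteins hold the ligands outside the cell. In the liver, hepatocytes make most circulating IGF1, while stellate cells and myofibroblasts make several binding proteins and carry the IGF1 receptor.

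In these cultures Igf1 was the only member of the 10 that changed at an adjusted p of at most 0.05, and it fell (edgeR with TMM scaling). Under other scalings or tools Igf2r also passed, lower, with library totals and in fits on TPM, Igfbp7, higher, with DESeq2 and without a low-count filter, and Igf2, higher, with DESeq2, while Igf1 did not pass without the replicate block or without replicate 3. All 10 members were tested, 0 rose, 1 fell and 9 did not pass the test, so that 10% of the members lay beside the 18.4% of all 19963 genes tested that were called (8.13% higher and 10.2% lower). At an unadjusted p below 0.05 there were 4 members, Igf1, Igf2, Igf2r and Igfbp7. The share of all genes at that level was not counted, so this number has no background to be read against. The median log2 fold change of OGTi over control was 0.63 over the members and 0.01 over all genes tested. That of the members rests partly on few reads. Of the 7 members above 0, the 3 genes Igf2, Igfbp2 and Igfbp5 had at most 31 counts in a library. The direction was the same in all 4 replicate pairs for 3 members, against 40.9% of all genes. For no member did the 4 OGTi libraries lie wholly above or below the 4 control libraries, whereas 23.5% of all genes had such separated groups.

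**Figure D1:**
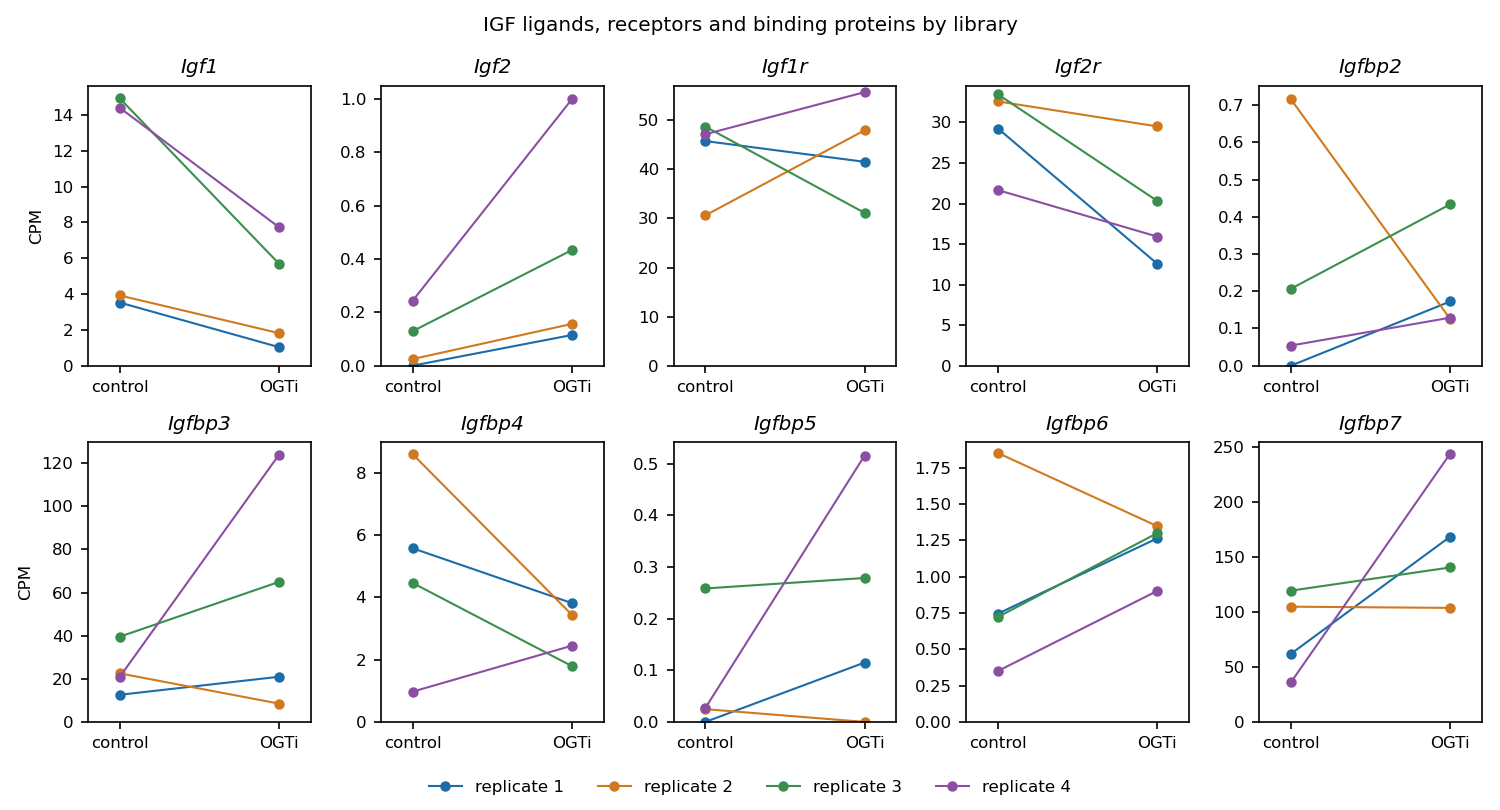
CPM (counts scaled to a common library size) of each of the 10 genes in the control and OGTi libraries, with a line joining the 2 libraries of a replicate and an axis of its own for each gene. All 4 lines fall for Igf1 and Igf2r and rise for Igf2, and replicates 3 and 4 lie above replicates 1 and 2 for Igf1 in both groups.

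The libraries held 30068876 to 37372420 expected counts and 19035 to 23746 genes with a count. Among 12525 genes with a mean of at least 1 CPM, control replicate 4 had 232 genes at least 4-fold below every other control library and OGTi replicate 1 had 195 such genes, against 1 to 21 in the other 6 libraries. OGTi replicate 4 had the most genes with a count and 73 genes at least 4-fold above its group. Control replicate 4 was the lowest control library for Igf2r, Igfbp4, Igfbp6 and Igfbp7, and OGTi replicate 4 the highest of its group for Igf1, Igf2, Igf1r, Igfbp3, Igfbp5 and Igfbp7. Values without replicate 4 are given below for several of these genes.

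The labelled cell type was checked against markers. The 10 stellate cell and myofibroblast markers summed to 8255 to 15173 CPM in control and 6546 to 15638 CPM in OGTi libraries, with Pdgfrb and Lrat called lower. Hepatocyte markers summed to at most 1.74 CPM, with Hnf4a and Tat at 0 in every library and Cyp2e1 called higher. Of 10 endothelial markers 8 were below 1 CPM everywhere (sums of 3.27 to 7.36 CPM in control and 1.15 to 2.54 CPM in OGTi, Lyve1 and Tek called lower). Macrophage markers summed to 31.1 to 97.2 CPM in control and 58.5 to 153 CPM in OGTi, with Cd68 called higher. Their sum was higher in all 4 pairs and consisted mostly of Cd68, Lyz2 and Csf1r, while C1qa and C1qb were lower in OGTi in replicates 3 and 4, which held nearly all their reads. Portal fibroblast markers summed to 162 to 428 CPM in control and 24.6 to 145 CPM in OGTi. Nearly all of this sum was Fbln2 (called lower), and 4 of the 6 markers were below 1 CPM everywhere. Cholangiocyte markers summed to 200 to 436 CPM and 128 to 515 CPM (1 called higher, 1 lower). Most of that sum was Spp1 and Krt19, and 2 of the 6 markers were below 1 CPM everywhere. Mesothelial markers summed to 1.47 to 2.22 CPM and 1.51 to 2.60 CPM with no call. The part of these cells in the results was not tested, and in bulk RNA fewer cells of a type cannot be told apart from less RNA per cell.

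The promoters of Igf2 and Igf1r are printed because they show how differently composed the canonical start sites are of the ligand whose few reads rose in every pair without passing the test, and of its signalling receptor, which had a difference near 0. The deposited tables list 8 RefSeq transcripts for Igf2 and 7 for Igf1r, and which start site the reads came from was not examined. Each promoter window runs from 250 bases before to 50 bases after the start of the GENCODE canonical transcript in the GRCm39 build, 5′ to 3′ on the strand of the gene. They lie at chr7:142211184-142211483 on the minus strand (Igf2) and chr7:67601268-67601567 on the plus strand (Igf1r). Capitals mark a match to the TEAD hexamer CATTCC or its reverse complement GGAATG.
Igf2: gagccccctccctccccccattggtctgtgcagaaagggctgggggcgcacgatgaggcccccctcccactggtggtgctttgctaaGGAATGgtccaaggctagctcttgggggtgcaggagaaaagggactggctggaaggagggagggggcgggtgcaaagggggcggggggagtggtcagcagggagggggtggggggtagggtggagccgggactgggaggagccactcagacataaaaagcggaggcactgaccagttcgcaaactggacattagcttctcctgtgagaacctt
Igf1r: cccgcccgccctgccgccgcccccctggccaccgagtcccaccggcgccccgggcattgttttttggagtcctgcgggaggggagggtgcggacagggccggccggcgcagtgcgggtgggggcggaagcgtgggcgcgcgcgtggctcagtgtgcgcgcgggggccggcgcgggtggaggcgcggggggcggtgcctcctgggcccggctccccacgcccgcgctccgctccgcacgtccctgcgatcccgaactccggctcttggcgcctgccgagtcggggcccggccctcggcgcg
The Igf2 window had a GC content of 63.3% and 7 CpG dinucleotides and the Igf1r window 80.7% and 46, beside a median of 54.3% and 11 over 21738 promoters. The TEAD hexamer was in 2 of the 9 members' windows searched, at -163 from the start of Igf2 and at -214 from that of Igfbp5, and in 14.0% of all promoters. The TATA letters TATAAA or TTTATA were in the windows of Igfbp4 (at -22) and Igfbp6 (at -224) and in 13.2% of all promoters. Searched on both strands, the AP-1 letters TGACTCA or TGAGTCA (4.70% of all promoters) and the FOXO letters GTAAACA or TGTTTAC (3.15%) were in 0 of these 9 windows. The motifs did not overlap, and a match or its absence describes only the letters in the window.

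Igf1, which codes for the ligand that growth hormone induces in liver, lies at chr10:87693642-87772904 on the plus strand (GRCm39). Its expected counts were 137, 159, 578 and 533 in control replicates 1 to 4 and 36, 58, 184 and 240 in the OGTi replicates. In CPM these were 3.52, 3.92, 14.9 and 14.4 in control and 1.03, 1.82, 5.70 and 7.73 in OGTi. Every OGTi library was below the control library of its own replicate, but the groups overlapped, since replicates 3 and 4 were high in both. The mean was 9.20 ± 6.32 CPM (SD, n = 4) in control and 4.07 ± 3.18 CPM (SD, n = 4) in OGTi, with log2 ratios of -1.77, -1.11, -1.39 and -0.90 in the 4 pairs. The log2 fold change was -1.28 ± 0.26 (SE, 95% interval -1.85 to -0.70, edgeR's quasi-likelihood test with the replicate as a block, adjusted p = 0.00762). Without the block the log2 fold change was -1.18 and the adjusted p of edgeR 0.254, and without replicate 3 they were -1.24 and 0.0523. Without replicate 4 or without replicate 1 the call held, at log2 fold changes of -1.40 (edgeR, adjusted p = 0.0273) and -1.13 (edgeR, adjusted p = 0.0208).

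Other genes were also higher in replicates 3 and 4 of both groups. C1qa, which codes for a complement subunit made by macrophages, had counts of 0, 0, 103 and 30 in control and 0, 2, 42 and 17 in OGTi. Lum, which codes for the proteoglycan lumican of stellate cells and fibroblasts, was at 66.5, 36.7, 405 and 590 CPM in control and 78.5, 45.5, 616 and 818 CPM in OGTi. C1qb, the gene of another subunit, had counts of 2, 0, 118 and 73 in control and 0, 2, 49 and 28 in OGTi. Both complement genes were lower in OGTi in replicates 3 and 4. Other macrophage markers ran differently. Cd68, a lysosomal protein gene, was at 16.4, 12.5, 11.5 and 5.24 CPM in control and 51.0, 30.4, 32.9 and 15.5 CPM in OGTi, higher in OGTi in all 4 pairs and lowest in replicate 4 of both groups. Lyz2, a lysozyme gene, was at 6.61, 12.8, 63.8 and 29.9 CPM in control and 12.9, 18.5, 100.7 and 33.9 CPM in OGTi, highest in replicates 3 and 4 but higher in OGTi in all 4 pairs. The part of these differences between replicates in the levels of Igf1 was not tested.

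The 5 genes most like Igf1 were taken as those of highest Pearson correlation of log2 CPM over the 8 libraries, among 12524 other genes with a mean of at least 1 CPM. They were Gdap10 (r = 0.972), Ccdc80 (0.970), Cd80 (0.970), Gabra3 (0.969) and Il1r1 (0.968). Ccdc80, which codes for an extracellular matrix protein, was at 171, 169, 645 and 475 CPM in control and 71.2, 95.2, 383 and 281 CPM in OGTi. Its log2 fold change was -0.90 (edgeR, adjusted p = 0.00920). Il1r1, the interleukin-1 receptor gene, fell by 1.15 on the log2 scale (edgeR, adjusted p = 0.0256) and Cd80, a costimulatory ligand gene, fell by 1.92 (edgeR, adjusted p = 0.00538). Gabra3, a GABA receptor subunit gene, and Gdap10 had log2 fold changes of -1.05 and -0.79 that did not pass the test (edgeR, adjusted p = 0.0557 and 0.179). The points share libraries, replicates and treatment, so these correlations describe a shared pattern of 2 groups and 4 replicates.

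Igf2, the fetal growth ligand and an imprinted gene, lies at chr7:142204503-142220694 on the minus strand and was close to the limit of detection. Its counts were 0, 1, 5 and 9 in control and 4, 5, 14 and 31 in OGTi, or 0, 0.0247, 0.129 and 0.243 CPM against 0.115, 0.157, 0.433 and 0.999 CPM. Each OGTi library was above the control library of its replicate, the groups overlapped, and OGTi replicate 4 held the most reads. A count of 0, as in control replicate 1, allows up to 3 counts or 0.0772 CPM, and such limits cover counting error only. The fitted log2 fold change of 2.29 ± 0.83 (SE) did not pass the test (edgeR, adjusted p = 0.0846), and DESeq2 called it at 2.47 (adjusted p = 0.0441). In the fits on log2(TPM + 1) and log2(TPM + 0.1) the difference was 0.18 and 0.83 (limma, adjusted p = 0.185 and 0.128). Of the summed ligand level in TPM, a measure that also allows for transcript length, Igf1 made up 100%, 97.1%, 98.5% and 96.9% in control and 78.3%, 86.0%, 85.2% and 76.5% in OGTi. Igf1 was thus the more abundant ligand transcript in all 8 libraries, with a lower share in every OGTi library than in any control library, and this share was not tested. It rests on few Igf2 reads. The effective length used for TPM also varied between libraries, from 1307 to 3732 bases for Igf2 and from 6753 to 6783 bases for Igf1.

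By the same measure of likeness, the 5 genes most like Igf2 were Gpat2 (r = 0.980), Zfp119a (0.973), Plekhn1 (0.971), Perm1 (0.970) and LOC118567631 (0.964). Perm1 rose by 1.84 on the log2 scale (edgeR, adjusted p = 0.00234) and Plekhn1 by 1.13 (edgeR, adjusted p = 0.00859), and the other 3 did not pass the test. With 0 to 31 counts per library, the pattern of Igf2 itself carries a large counting error.

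Igf1r, which codes for the tyrosine kinase receptor of both ligands, lies at chr7:67601518-67883416 on the plus strand. It was at 45.8, 30.6, 48.7 and 47.2 CPM in control and 41.5, 48.0, 31.1 and 55.7 CPM in OGTi. The groups overlapped almost wholly, with 2 pairs higher and 2 lower. The mean was 43.1 ± 8.38 CPM (SD, n = 4) in control and 44.1 ± 10.4 CPM (SD, n = 4) in OGTi. The log2 fold change was 0.03 ± 0.25 (SE, 95% interval -0.53 to 0.58, edgeR, adjusted p = 0.959), an interval that reaches well to both sides of 0. The sign turned under 5 alternatives, with values from -0.29 to -0.04.

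Igf2r, the gene of the IGF2 clearance receptor, lies at chr17:12901293-12988614 on the minus strand. It was at 29.2, 32.6, 33.4 and 21.6 CPM in control and 12.6, 29.5, 20.3 and 15.9 CPM in OGTi. Each OGTi library was lower than its own control library, and only OGTi replicate 2 lay within the control range. The log2 ratios of the pairs were -1.22, -0.14, -0.72 and -0.44, and the log2 fold change was -0.63 ± 0.24 (SE, 95% interval -1.17 to -0.09), which did not pass the test (edgeR, adjusted p = 0.101). It passed when libraries were scaled by their totals alone (edgeR, log2 fold change -0.83, adjusted p = 0.0446), a setting that moved the median of all genes to -0.19. Airn, a noncoding RNA gene on the opposite strand, shares 28417 bases with Igf2r and was at 0.148 to 0.402 CPM. The TPM ratio of Igf1r to Igf2r was 1.21, 0.723, 1.12 and 1.68 in control and 2.55, 1.25, 1.18 and 2.70 in OGTi, higher in OGTi in all 4 pairs with overlapping groups.

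**Figure D2:**
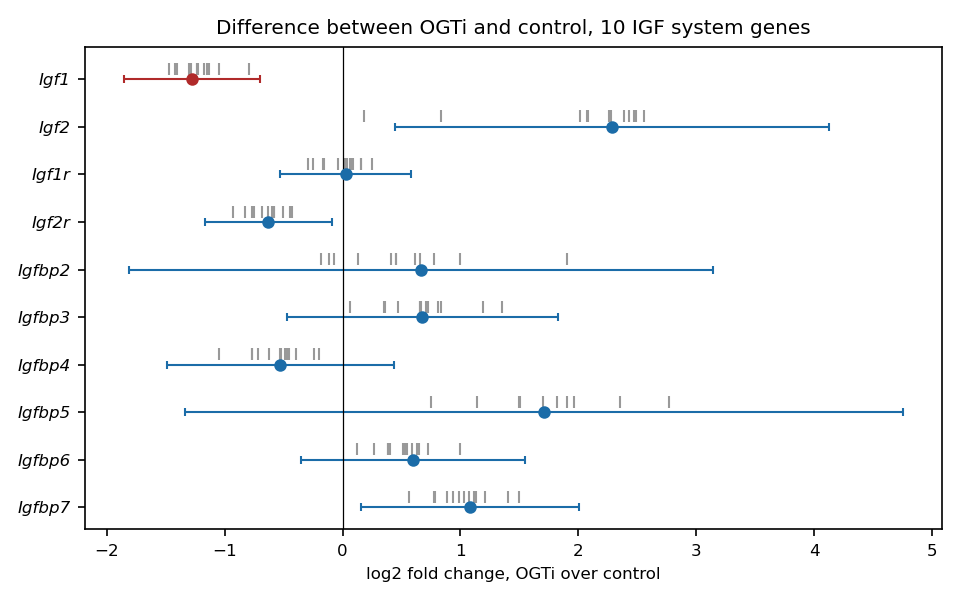
Log2 fold change of OGTi over control for the 10 genes (points, edgeR fit with the replicate as a block) with 95% intervals (bars), and the values under up to 13 alternative settings (grey ticks). The point of Igf1 (red, adjusted p at most 0.05) is at -1.28, and the intervals of Igf1r, Igfbp2, Igfbp3, Igfbp4, Igfbp5 and Igfbp6 cross 0.

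Among the binding protein genes, Igfbp7 and Igfbp3 held nearly all the transcripts, and none of the 6 passed the test. Igfbp7 made up 87.3% ± 3.36 (SD, n = 4) of their summed TPM in control and 89.9% ± 5.51 in OGTi, Igfbp3 9.48% ± 4.61 and 8.54% ± 6.10, and Igfbp4 2.14% and 0.739%. The summed TPM was 127, 220, 260 and 82.5 in control and 229, 188, 244 and 442 in OGTi. Control replicate 4 was thus the lowest of the 8 libraries and OGTi replicate 4 the highest, and they are of the same pair.

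**Figure D3:**
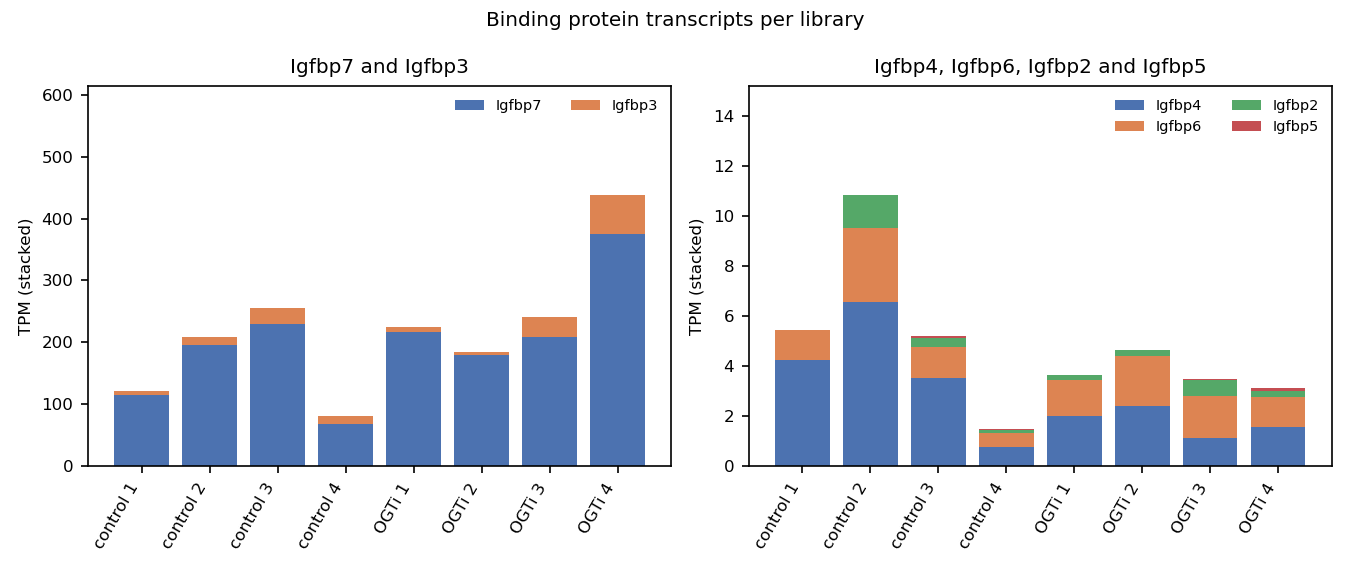
Stacked TPM of Igfbp7 and Igfbp3 (left) and of Igfbp4, Igfbp6, Igfbp2 and Igfbp5 (right, an axis of smaller range) in each of the 8 libraries. Igfbp7 makes up most of every bar on the left, and the lowest and highest bars on the left are control replicate 4 and OGTi replicate 4.

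Igfbp7 codes for a secreted protein of low IGF affinity that lies in the matrix around vessels and fibroblasts (chr5:77493130-77555931, minus strand). It was at 62.0, 104.9, 119.5 and 36.1 CPM in control and 168.6, 103.8, 140.6 and 244.1 CPM in OGTi. OGTi replicates 1, 3 and 4 were above every control library, and replicate 2 was nearly equal in both groups. The log2 fold change was 1.08 ± 0.41 (SE, 95% interval 0.16 to 2.00) and did not pass the test (edgeR, adjusted p = 0.101). It was 0.56 without replicate 4 (edgeR, adjusted p = 0.282) and larger without replicate 2 (edgeR, adjusted p = 0.0600). DESeq2 called it at 1.13 (adjusted p = 0.0328).

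Igfbp3, the gene of the main carrier of IGFs in serum, lies at chr11:7156086-7164179 on the minus strand. It was at 12.6, 22.5, 39.5 and 20.9 CPM in control and 20.9, 8.49, 64.9 and 123.9 CPM in OGTi. The OGTi group held both the lowest and the highest of the 8 libraries, and the pairs moved by 0.74, -1.41, 0.72 and 2.57 on the log2 scale. The log2 fold change was 0.67 ± 0.52 (SE, edgeR, adjusted p = 0.417), and it ranged from 0.06 without replicate 4 to 1.35 without replicate 2. Igfbp1, 3539 bases away on the other strand, was at 0 in every control library and at most 0.144 CPM in OGTi.

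Igfbp4 codes for a binding protein that the protease PAPP-A cleaves (chr11:98932064-98945218, plus strand). It was at 5.58, 8.61, 4.47 and 0.973 CPM in control and 3.82, 3.45, 1.80 and 2.45 CPM in OGTi. Replicates 1 to 3 were lower in OGTi and replicate 4 was higher, its control library being the lowest of all 8. The log2 fold change was -0.53 ± 0.43 (SE, edgeR, adjusted p = 0.451), and it was -1.05 without replicate 4 (edgeR, adjusted p = 0.0759), -0.20 without replicate 2 (edgeR, adjusted p = 0.834) and -0.24 without replicate 3 (edgeR, adjusted p = 0.818).

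Igfbp6, whose product prefers IGF2, lies at chr15:102052697-102057953 on the plus strand. It was at 0.746, 1.85, 0.723 and 0.351 CPM in control and between 0.902 and 1.35 CPM in the OGTi libraries. Pairs 1, 3 and 4 were higher in OGTi, and the highest library of all was control replicate 2. The log2 fold change was 0.60 ± 0.43 (SE, edgeR, adjusted p = 0.378), and it was 0.38 without replicate 4 and 1.00 without replicate 2.

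Igfbp2 and Igfbp5, which code for binding proteins of the extracellular space and matrix, are neighbours 5456 bases apart on opposite strands of chromosome 1 (chr1:72863606-72891634 and chr1:72897091-72914043), and both were barely detected. Igfbp2 had counts of 0, 29, 8 and 2 in control and 6, 4, 14 and 4 in OGTi. Igfbp5 had counts of 0, 1, 10 and 1 in control and 4, 0, 9 and 16 in OGTi. Neither had a shared direction over the pairs, and their log2 fold changes of 0.66 ± 1.11 and 1.71 ± 1.37 (SE) did not pass the test (edgeR, adjusted p = 0.739 and 0.440). That of Igfbp5 was 0.75 without replicate 4 and 2.77 without replicate 3. That of Igfbp2 was -0.11 without replicate 1, 1.90 without replicate 2 and 0.41 without replicate 4.

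Levels were ordered by mean TPM. In control, Igfbp7 came first with 152 ± 73.8 TPM (SD, n = 4), followed by Igfbp3 with 14.9 ± 7.32 TPM, Igf1r with 6.63 ± 1.355 TPM, Igf2r with 5.84 ± 1.09 TPM, Igfbp4 with 3.77 ± 2.39 TPM, Igf1 with 2.38 ± 1.66 TPM and Igfbp6 with 1.503 ± 1.04 TPM. Igfbp2, Igf2 and Igfbp5 were below 1 TPM on average. Only Igfbp7 and Igfbp3, and Igfbp3 and Igf1r, were neighbours in that order whose libraries did not overlap. In OGTi, Igfbp7 was at 245 ± 88.5 TPM and Igfbp3 at 27.5 ± 27.0 TPM (SD, n = 4), and these were the only neighbours that did not overlap. Igf1r was at 5.49 TPM, Igf2r at 3.23, Igfbp4 at 1.77, Igfbp6 at 1.59 and Igf1 at 0.847, so that the mean of Igf1 came below that of Igfbp6.

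Beyond the 10 genes, 7 lists covered 63 other genes of the pathway, of which 57 were tested, 2 rose and 9 fell. The share called was 19.3%, beside 18.4% of all genes, and the median log2 fold change was -0.14.

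Of the 7 other genes of the family, Igfbp1, Ins1, Ins2 and Insrr had too few counts to be tested and 0 of the other 3 were called. Insr, which codes for the insulin receptor, was at 19.2, 22.5, 18.9 and 26.0 CPM in control and 40.0, 24.8, 16.5 and 39.9 CPM in OGTi. OGTi replicates 1 and 4 were above all control libraries and replicate 3 below them, and the log2 fold change was 0.41 ± 0.25 (SE, edgeR, adjusted p = 0.311). It was 0.19 without replicate 1, 0.21 with library totals alone and 0.0755 to 0.0787 in the fits on TPM.

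In the list of receptor adaptors and associated signalling genes 8 genes were tested and 3 fell, beside 10.2% of all genes called lower. Irs1, the gene of a main docking protein of the insulin and IGF1 receptors, was at 40.4, 29.0, 42.1 and 43.6 CPM in control and 7.41, 27.0, 18.2 and 14.3 CPM in OGTi. All OGTi libraries were below all control libraries, and the log2 fold change was -1.34 ± 0.35 (SE, edgeR, adjusted p = 0.0239). The call was lost without replicate 1, 3 or 4 (log2 fold changes of -0.98, -1.39 and -1.23, edgeR, adjusted p = 0.0690, 0.0664 and 0.109). Irs2, its paralog, had a log2 fold change of -0.07 ± 0.32 (SE, edgeR, adjusted p = 0.916), and its sign turned under 4 alternatives.

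Grb10, an imprinted gene whose product binds and restrains the insulin and IGF1 receptors, was at 130.3, 90.8, 125.1 and 122.8 CPM in control and 13.8, 58.7, 36.1 and 45.6 CPM in OGTi. The groups did not overlap, and the gene fell by 1.75 on the log2 scale, with a standard error of 0.37 (edgeR, adjusted p = 0.00957). Its paralog Grb14 fell by 1.54 (SE 0.34, edgeR, adjusted p = 0.0110). That call was lost without the replicate block (log2 fold change -1.68, edgeR, adjusted p = 0.0790) and without replicate 3 (log2 fold change -1.33, edgeR, adjusted p = 0.0916).

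In the PI3K, AKT, mTOR and FOXO list 22 genes were tested, 1 rose and 1 fell. Pik3r1, the gene of the p85 regulatory subunit of PI3K, was at 19.5, 22.0, 21.2 and 22.7 CPM in control and 31.5, 41.1, 31.3 and 39.8 CPM in OGTi, with no overlap and a log2 fold change of 0.74 ± 0.21 (SE, edgeR, adjusted p = 0.0329). Akt2, a kinase gene of insulin signalling, fell from 90.6, 106.9, 99.5 and 99.4 CPM to 42.0, 73.7, 63.1 and 60.8 CPM, a log2 fold change of -0.75 ± 0.20 (SE, edgeR, adjusted p = 0.0276). Both calls were lost without replicate 2, 3 or 4 (edgeR, adjusted p = 0.0898, 0.118 and 0.0992 for Pik3r1 and 0.0649, 0.110 and 0.0806 for Akt2). The log2 fold changes were then 0.71, 0.80 and 0.73 for Pik3r1 and -0.80, -0.78 and -0.76 for Akt2. In the fits on log2(TPM + 1) and log2(TPM + 0.1) that of Pik3r1 was 0.36 and 0.405 and did not pass the test (limma, adjusted p = 0.211 and 0.205).

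Of the 5 growth hormone axis genes, 1 was called. Stat5b, the gene of a transcription factor that growth hormone activates, was at 13.6, 24.6, 20.7 and 18.5 CPM in control and 9.91, 12.5, 11.1 and 10.3 CPM in OGTi. All OGTi libraries lay below the control libraries, and the gene fell by 0.79 on the log2 scale (SE 0.22, edgeR, adjusted p = 0.0321). The adjusted p of edgeR rose to 0.102, 0.162 and 0.103 without replicate 2, 3 or 4 and to 0.165 with the length trend of the libraries removed. The log2 fold changes were then -0.70, -0.76 and -0.77 without these replicates and -0.53 with the trend removed. Ghr, the growth hormone receptor gene, had a log2 fold change of 0.21 ± 0.22 (SE, edgeR, adjusted p = 0.573).

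Of the 6 genes for binding protein proteases and their inhibitors, 1 was called. Adam12, which codes for a metalloprotease that can cleave IGFBP3 and IGFBP5, fell from 13.3, 13.2, 24.5 and 24.2 CPM to 3.25, 9.87, 9.94 and 4.41 CPM. The groups did not overlap (log2 fold change -1.55 ± 0.34, SE, edgeR, adjusted p = 0.0108), and the call was lost without replicate 4 (log2 fold change -1.23, edgeR, adjusted p = 0.0619). Pappa, the PAPP-A gene, was at or below 0.838 CPM in all libraries.

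Igf2bp1, the gene of an RNA-binding protein that associates with IGF2 mRNA, fell from 7.92, 7.55, 7.52 and 5.08 CPM to 1.72, 2.51, 3.75 and 2.26 CPM. Its log2 fold change was -1.49 ± 0.29 (SE, edgeR, adjusted p = 0.00639). The other 2 of the 3 genes of that family did not pass the test.

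Of 10 tested imprinted growth genes, 1 rose and 2 fell. Mest, the gene of a hydrolase-like protein expressed from the paternal allele, was at 37.2, 34.2, 32.4 and 14.3 CPM in control and 87.0, 93.8, 74.6 and 100.1 CPM in OGTi. It rose in all 4 pairs without overlap (log2 fold change 1.66 ± 0.29, SE, edgeR, adjusted p = 0.00419). Peg3, a zinc finger gene, fell by 1.17 (SE 0.28, edgeR, adjusted p = 0.0156), a call lost without the block (edgeR, adjusted p = 0.121) and without replicate 3 or 4 (edgeR, adjusted p = 0.0806 and 0.0502). Over the 13 alternatives the log2 fold change of Peg3 ranged from -1.48 to -0.92. Slc38a4, an amino acid transporter gene, fell from 1.26, 1.26, 1.21 and 1.84 CPM to 0.259, 0.313, 0.371 and 0.0967 CPM (log2 fold change -2.43 ± 0.52, SE, edgeR, adjusted p = 0.0100). H19, a noncoding RNA gene 70545 bases from Igf2 on the same strand, had too few counts to be tested.

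**Figure D4:**
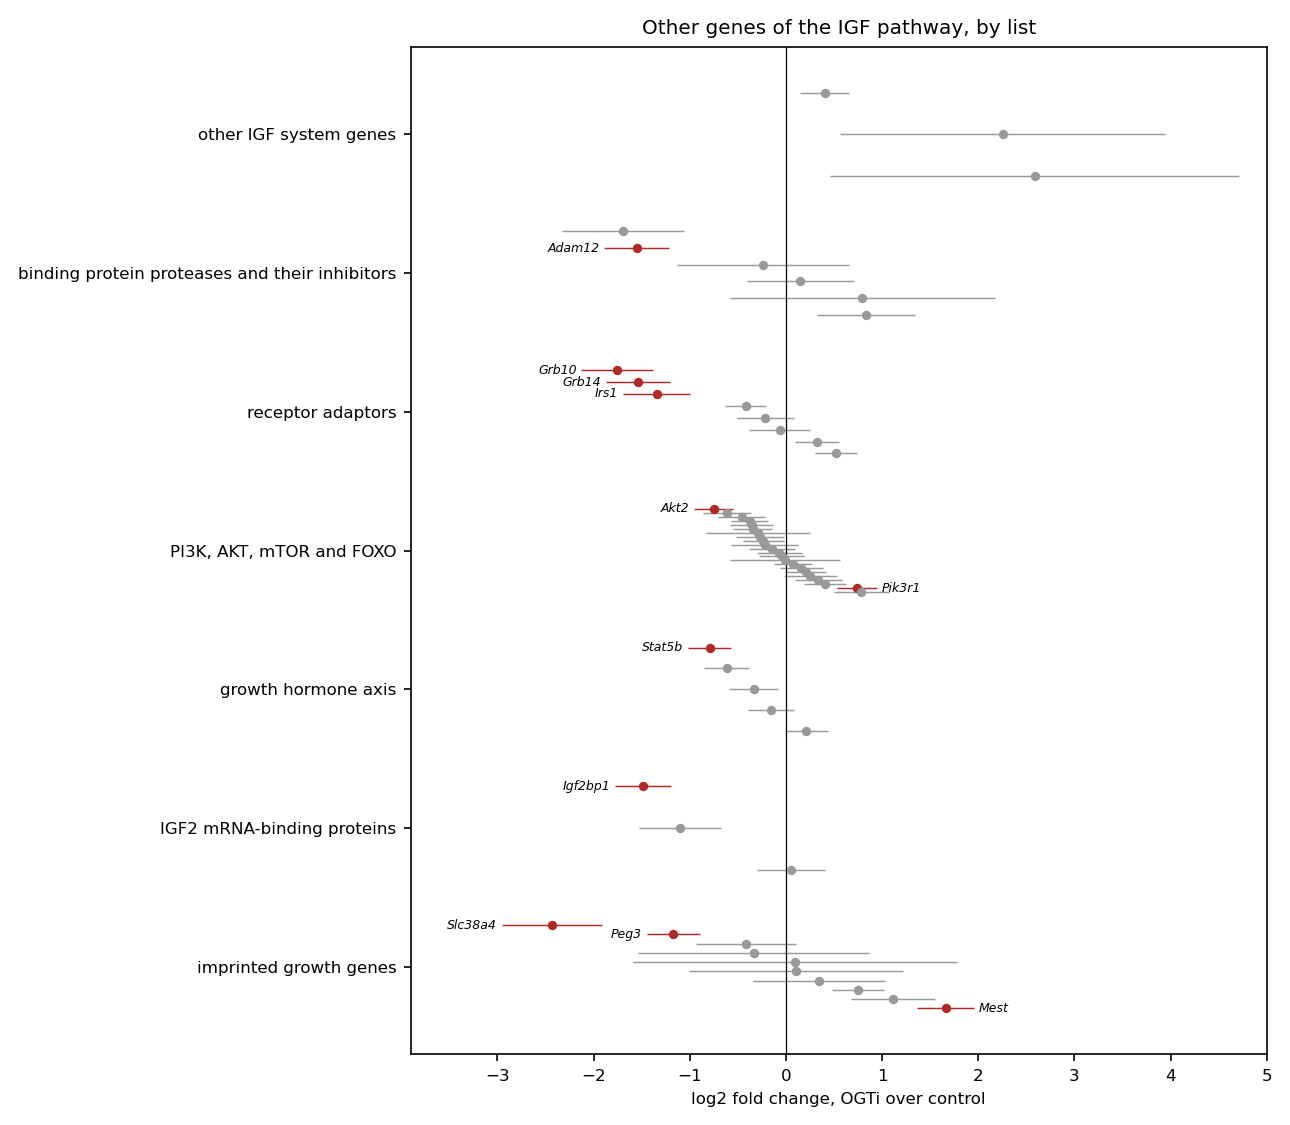
Log2 fold change of OGTi over control with its SE for the 57 tested genes of the 7 pathway lists, 1 point per gene. Named red points are the 11 genes called at an adjusted p of at most 0.05, of which 9 lie below 0, and the other genes (grey) lie on both sides of 0.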

How the data were processed

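RNA was measured by stranded, paired-end sequencing of polyadenylated RNA in 4 control and 4 OGTi cultures. Per the submitters' processing notes and the study's methods, the authors aligned reads with Bowtie2 2.3.5.1 to mm39 (GRCm39) and ran RSEM 1.3.1 with a strand setting. The deposited tables give, per gene and library, the expected count (an estimate that need not be whole), TPM and the effective length. A deposited comparison table with the authors' counts, fold changes and p-values from DESeq2 1.36.0 was not used here. Of further per-sample columns, 0 were left out. Transcript identifiers in the tables are RefSeq ones. Positions and promoters were taken from GRCm39 with GENCODE, and 1 promoter is not reported here.

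Rounded expected counts (whole numbers) were tested in edgeR 4.0.16 (R 4.3.3, TMM scaling, glmQLFit and glmQLFTest, replicate number as a block) for genes with a total of at least 10 counts, with Benjamini-Hochberg adjustment over all 19963 genes. Genes were called where the adjusted p was 0.05 or less. CPM is the count scaled by the TMM-adjusted library size. The SE is the log2 fold change divided by the root of F. The biological coefficient of variation was 0.342. The script was tested on simulated data.

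The methods pair treated and control samples of one replicate. The correlation across genes of deviations from the group means was 0.105 to 0.318 for same-numbered libraries and -0.312 to 0.208 for others. Totals of 30068876 to 37372420 expected counts make counting error small except for genes with few reads. Pooling of animals being not given, p-values of the fits with the block measure how far the differences within pairs vary over these cultures. Without the block they measure the spread between the cultures of a group.

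Named genes were the 10 members, Insr, Irs1, Irs2, up to 4 called genes of largest change per pathway list, and the 5 genes most correlated with each of the 2 members of lowest p. Genes named for being beside these were chosen after their values were seen, namely Airn, Igfbp1, H19, Ghr, Pappa, C1qa, C1qb, Cd68, Lyz2, Csf1r, Spp1, Krt19 and Lum. The members and all lists were chosen with earlier results of these data known. Alternatives were upper-quartile scaling, library totals, DESeq2 1.42.0, other count filters, no block, removal of each library's gene-length trend, limma 3.58.1 on log2(TPM + 1) or log2(TPM + 0.1), and leaving out each replicate pair.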

Additional observations from a re-analysis of the deposited data

Results flagged for a closer look

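In 6 of 46 groups of 4 libraries, 1 library lay far from the other 3 by Dixon's criterion, where chance gives about 1 in 20 or 2.3. Igf1r was at 30.6 CPM in control replicate 2, against 45.8 to 48.7 CPM in the other control libraries. Igfbp2 was at 0.433 CPM in OGTi replicate 3 (others 0.125 to 0.172 CPM), and Igfbp5 at 0.258 CPM in control replicate 3 (others 0 to 0.0270 CPM), both from few reads. Irs2 was at 25.0 CPM in control replicate 3 (others 16.8 to 18.1 CPM). In control replicate 4, Igf2bp1 was at 5.08 CPM (others 7.52 to 7.92 CPM) and Slc38a4 at 1.84 CPM (others 1.21 to 1.26 CPM). For both genes, the calls lower in OGTi held without replicate 4 (edgeR, adjusted p = 0.0259 and 0.0465).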

How the results depend on the processing

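Igf1 kept its direction in 13 of 13 alternatives (log2 fold change -1.48 to -0.80, adjusted p 0.000173 to 0.254) and its call in 11. The number of the 10 members called was 2 with library totals (2 lower), with no low-count filter (1 higher), and with either TPM fit (2 lower), 3 with DESeq2 (2 higher), 0 with no replicate block (0 lower, edgeR, 1 at an unadjusted p below 0.05), and 0 to 1, all lower, without 1 replicate. The member called with library totals and the TPM fits besides Igf1 was Igf2r. Over all genes, library totals called 4167 of 19963, no low-count filter 4555 of 27756 and DESeq2 4859 of 19963. The fit with no replicate block called 2991 of 19963, and the 2 TPM fits called 4973 and 4914 of 15983.

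In the pathway lists the number higher was 4 with upper-quartile scaling, no filter or the length trend removed, 5 with DESeq2 and 1 with library totals or either TPM fit. The number lower was 14 on log2(TPM + 1) and 15 on log2(TPM + 0.1). Without 1 replicate, 5 to 12 were called (1 to 3 higher, 4 to 9 lower), the lowest counts being without replicate 3 and without replicate 4. Over all genes, upper-quartile scaling called 2051 higher and 1732 lower, and library totals called 1256 higher and 2911 lower. In the 2 TPM fits 3804 and 3733 genes were lower, and without 1 replicate 1905 to 3124 were called (843 to 1433 higher, 1062 to 1744 lower). These alternatives moved the median of all genes to 0.13 (upper quartile), -0.19 (library totals), 0.14 (no filter), -0.23 and -0.35 (TPM fits).

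The sign turned for Igf1r with library totals (-0.17), on log2(TPM + 1) (-0.25) and log2(TPM + 0.1) (-0.29), and without replicate 2 (-0.15) or 4 (-0.04), with 0.25 as the highest value without 1 replicate. It turned for Igfbp2 with no replicate block (-0.19), on log2(TPM + 1) (-0.0772) and without replicate 1 (-0.11, and up to 1.90 without another replicate). It turned for Irs2 with upper-quartile scaling (0.0629), no replicate block (0.0072), the length trend removed (0.17) and without replicate 3 (0.30, and down to -0.37 without another replicate). The cause was not tested. Beside the calls lost without 1 replicate or without the block, Akt2 and Stat5b lost theirs with upper-quartile scaling (edgeR, adjusted p = 0.0571 and 0.0740), and Pik3r1 with library totals (edgeR, adjusted p = 0.113) and in the TPM fits (limma, adjusted p = 0.211 and 0.205).

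By counts in place of TPM, the binding protein shares were 22.9% in control and 20.6% in OGTi for Igfbp3, 4.37% and 1.60% for Igfbp4, 0.0552% and 0.0826% for Igfbp5, and 71.7% and 77.0% for Igfbp7, since counts rise with transcript length. Depth limits Igf2, Igfbp2 and Igfbp5, each with at most 31 counts in a library. Some of them were not tested under the stricter filter (all 3) or in the TPM fits (Igfbp5).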
